A study of Homo sapiens with 20 samples.

Results

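The 10 genes described here are FOXL2, INHA, INHBA, INHBB, FST, FSTL1, FSTL3, AMH, AMHR2 and NR5A1, which encode the activin and inhibin subunits, the follistatins, anti-Müllerian hormone (AMH) and its receptor, and a pair of transcription factors of the ovarian somatic cells. They are 10 of the 24196 genes in the deposited table, and all 10 symbols were found there. They were chosen by symbol with measured values of these libraries already known, above all the FOXL2 value of a single PBS tumor, PBS replicate 4. The distance of that library from the others is therefore given as a description, with no test, and the treatment groups were compared without it.

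The libraries came from orthotopic tumors of OVCAR8, a human ovarian cancer cell line, grown in NSG mice, an immunodeficient strain. In 4 tumors the mice had received PBS as the vehicle, and in 4 they had received gluconate. The study's methods describe luciferase-tagged cells implanted at the ovary into mice aged 6 weeks, followed by PBS or sodium gluconate at 1 mg/kg given i.p. once weekly over 35 days. All tumors stem from 1 cell line, the host mouse contributes vessels and stroma, and the labels do not tie a tumor to a mouse or a batch, so p-values measure only the spread between these samples. The results text of the study speaks of treated cells, whereas the groups here follow the labels, which name tumors. The other 12 libraries of the series, from knockout and control cells, were not analysed here. Expression is given as FPKM, fragments scaled by gene length and library depth, which is a level per length and so can be set side by side between genes.

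Activins are dimers of the beta subunits made from INHBA and INHBB, and they signal through activin receptors to SMAD2 and SMAD3. Inhibins join a beta subunit to the alpha subunit from INHA and act against activin, while follistatin, from FST, and the follistatin-like protein from FSTL3 bind activin and keep it from its receptors. FOXL2 is the forkhead factor that maintains granulosa cell identity in the ovary, NR5A1 encodes steroidogenic factor 1 (SF-1), and AMH is a granulosa cell hormone whose own receptor is AMHR2. FST is a known target of FOXL2 in granulosa cells.

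PBS replicate 4 was the shallowest library and stood apart before any gene was considered. Its FPKM values rested on 3953206 fragments, against 39325749 to 46551535 in the other 7 libraries, which is 9.95 to 11.8 times fewer. It had 15514 genes above 0, against 19991 to 20251 in the others. Over the 12530 genes with a mean of at least 0.5 FPKM in the other 7 libraries, the median of its log2 ratio to the median of those 7 was -0.29, and its members are read against that shift. The carcinoma keratins KRT8 and KRT18 were at 889 and 801 FPKM in PBS replicate 4, inside the ranges of 699.7 to 1051 and 513 to 987 FPKM in the other 7. The other 3 of the 5 tested genes of the carcinoma list were below all 7, as were 58.6% of all genes tested, with KRT7 at 124 FPKM against 185 to 393 FPKM, EPCAM at 10.3 FPKM against 15.7 to 22.3 FPKM and PAX8, a factor of the Müllerian epithelium, at 32.4 FPKM against 38.0 to 50.7 FPKM. KRT19, CDH1 and MUC16 reached at most 0.159 FPKM in any library.

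Stretches of DNA before an annotated start of 2 of the genes that were high in PBS replicate 4 are shown because the position of FOXL2 beside another gene matters for the values that follow. Sequences are from RefSeq promoters on GRCh38.p14, 5′ to 3′ on the strand of the gene, cut to the part that no GENCODE 29 exon covers, and capitals mark a GATA motif. FOXL2 lies at chr3:138944224-138947137 on the minus strand, and the 93 bases at chr3:138947141-138947233 lie between its first exon and that of FOXL2NB, a neighbor read in the opposite direction, as GENCODE places them. RefSeq starts FOXL2NB at 138947217, inside this stretch. INHBA lies at chr7:41685114-41705406 on the minus strand, and its stretch is the 232 bases at chr7:41703109-41703340. This stretch lies inside the full span of INHBA, because the RefSeq promoter table uses a start further inside the gene than its outermost one.
FOXL2: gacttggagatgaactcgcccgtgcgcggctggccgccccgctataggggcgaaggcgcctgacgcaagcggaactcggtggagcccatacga
INHBA: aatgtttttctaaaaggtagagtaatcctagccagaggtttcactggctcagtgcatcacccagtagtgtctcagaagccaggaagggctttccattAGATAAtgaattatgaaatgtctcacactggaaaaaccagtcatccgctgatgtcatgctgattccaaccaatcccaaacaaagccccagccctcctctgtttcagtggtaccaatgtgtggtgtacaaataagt

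The third of these genes, FST at chr5:53480629-53487134 on the plus strand, has a GENCODE exon over 220 of the 250 bases before its RefSeq start, so that stretch is not printed. Over those 250 bases, GC content was 68.4% for FOXL2, 60% for FST, 42.8% for INHBA and 89.6% for INHBB, where the median of 35116 promoters was 58%. Motifs were searched on both strands. The forkhead motif searched was GTAAACA, which 2.98% of all promoters held. The SF-1 site was searched as AAGGTCA, which 3.44% held, and the palindrome of SMAD proteins as GTCTAGAC, which 0.182% held. None of these was in the 250 bases of any of the 10 genes. The motif of GATA factors, searched as AGATAA, was in 9.17% of all promoters and in those of INHA, INHBA and FST. The TATA box, searched as TATAAA, was in 10.7% of all promoters and in those of INHBA and FSTL3, where the INHBA match falls in the 18 bases that an exon covers and that are not printed. No motif overlapped another in these promoters. A match describes letters in this window and says nothing of binding.

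Of the activin and inhibin subunits, INHBB was the only one with a sizeable level. INHBB, at chr2:120346136-120351803, was at 6.33, 8.30 and 7.46 FPKM in PBS replicates 1 to 3, at 6.15 FPKM in PBS replicate 4, and at 5.95, 7.75, 8.81 and 7.60 FPKM in the 4 gluconate tumors. The groups overlapped, and PBS replicate 4 lay inside the range of the others. Without that library the mean was 7.36 ± 0.984 FPKM with PBS (SD, n = 3) and 7.53 ± 1.18 FPKM with gluconate (SD, n = 4). The log2 fold change was 0.03 with a standard error of 0.136 and an adjusted p of 0.977 in limma, adjusted by Benjamini-Hochberg across all 12530 genes.

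The other beta subunit gene, INHBA, was far lower than INHBB in every library, and PBS replicate 4 held its highest value. It was at 0.235, 0.0821 and 0.0742 FPKM in PBS replicates 1 to 3 and at 0.0336, 0.164, 0.119 and 0.144 FPKM in the gluconate tumors, from 11 to 87 fragments. It stood at 1.06 FPKM in PBS replicate 4, from 34 fragments, with a 95% Poisson interval of 0.734 to 1.48 FPKM, 4.51 times the highest of the other 7. The low depth of that library widens the interval, which covers counting error only, but its lower end still lay above all other values. An antisense gene, INHBA-AS1, spans 11488 bases of INHBA, and whether the counting used strand is not given in the sources used here. INHBA-AS1 held 0 fragments in PBS replicate 4 and 9 over all 8 libraries.

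INHA, the alpha subunit that makes an inhibin, was at the edge of detection. It had 6, 4 and 0 fragments in PBS replicates 1 to 3, 0 in PBS replicate 4 and 0, 2, 0 and 6 in the gluconate tumors, at most 0.104 FPKM. The count of 0 in PBS replicate 4 allows a level of up to 0.562 FPKM (3 fragments), above every value of the other libraries. INHA at this depth thus cannot be placed above or below the rest in PBS replicate 4.

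The follistatins differed from each other in both level and behavior. FSTL3, at chr19:676392-683385, was at 53.6, 46.3 and 57.0 FPKM in PBS replicates 1 to 3 and at 50.3, 51.1, 58.9 and 57.4 FPKM in the gluconate tumors. PBS replicate 4 had 21.7 FPKM of FSTL3, with a Poisson interval of 18.9 to 24.9 FPKM. That is 2.13 times below the lowest of the other 7 libraries and 1.01 on the log2 scale below the shift of all genes in PBS replicate 4, and 6.26% of the genes had a lower ratio.

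FST showed the opposite distance. It was at 0.679, 1.13 and 0.465 FPKM in PBS replicates 1 to 3 and at 0.433, 0.693, 0.276 and 0.409 FPKM in the gluconate tumors, from 41 to 198 fragments. PBS replicate 4 had 12.3 FPKM from 184 fragments, with a Poisson interval of 10.6 to 14.2 FPKM. FST was thus 10.9 times the highest of the other 7 libraries, rank 13 of 12530 genes by this ratio. In fragments, PBS replicate 4 gave nearly as many of FST as the deepest library, PBS replicate 2, did from 11.8 times the depth.

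FSTL1 encodes a secreted glycoprotein of the same family by sequence that is widely made by mesenchymal cells. It was the most abundant of the 10 genes, at 121, 114 and 101 FPKM in PBS replicates 1 to 3, 98.6 FPKM in PBS replicate 4 and 135, 122, 139 and 161 FPKM in the gluconate tumors. Every gluconate tumor was above every PBS tumor, though gluconate replicate 2 exceeded PBS replicate 1 by little. Its log2 ratio in PBS replicate 4 to the median of the other 7 was -0.30, beside the -0.29 of the median gene.

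**Figure D1:**
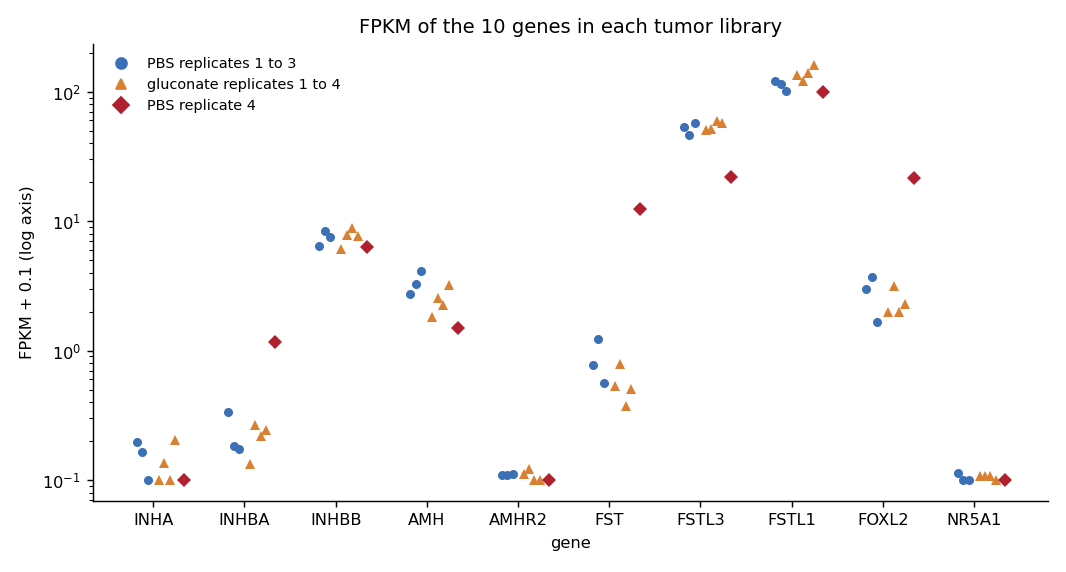
FPKM + 0.1 of the 10 genes (log axis) in each library, with PBS replicates 1 to 3 as circles, gluconate replicates 1 to 4 as triangles and PBS replicate 4 as a diamond, 1 point per library. FOXL2 at 21.5, FST at 12.3 and INHBA at 1.06 FPKM in PBS replicate 4 lie above all other libraries, FSTL3 at 21.7 FPKM lies below them, and a point at 0.1 is a gene listed at 0.

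FOXL2 was low but clear in every tumor. It was at 2.87, 3.60 and 1.56 FPKM in PBS replicates 1 to 3, from 381, 489 and 181 fragments, and at 1.89, 3.06, 1.88 and 2.18 FPKM in the gluconate tumors, from 216 to 381 fragments. The groups overlapped widely, with the lowest value in PBS replicate 3 and the highest in PBS replicate 2. PBS replicate 4 had 21.5 FPKM from 248 fragments, with a Poisson interval of 18.9 to 24.4 FPKM, 5.97 times the highest and 9.90 times the median of the other 7. By the first of these ratios FOXL2 was rank 32 of 12530 genes.

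The nearest neighbor of FOXL2, FOXL2NB, did not stand apart in PBS replicate 4. It starts 79 bases from FOXL2 in RefSeq. It was at 1.21, 1.21 and 1.03 FPKM in PBS replicates 1 to 3, 1.06 FPKM in PBS replicate 4 and 1.11, 1.16, 1.11 and 1.26 FPKM in the gluconate tumors. The ratio of FOXL2 to FOXL2NB was therefore 20.4 in PBS replicate 4 and between 1.51 and 2.97 in the other 7 libraries. On the other side LINC01391, a long noncoding RNA whose end is 203 bases away, was at 0.0121 to 0.0620 FPKM in the 7 libraries and at 0.0715 FPKM in PBS replicate 4 from 1 fragment. Its Poisson interval there reached 0.398 FPKM, so 1 fragment does not show whether its level there differed from the others. The remaining neighbors among the nearest 3 on each side, ATP5MC1P3, LOC124906289, PRR23A and PRR23B, were not matched in the table.

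NR5A1 and AMHR2 were near 0 everywhere. NR5A1, which drives steroid synthesis genes in the gonads, had 2, 0 and 0 fragments in PBS replicates 1 to 3, 0 in PBS replicate 4 and 1, 1, 1 and 0 in the gluconate tumors. AMHR2 had 1, 1 and 1, then 0, then 1, 2, 0 and 0. A count of 0 in PBS replicate 4 allows up to 0.247 FPKM of NR5A1 and 0.346 FPKM of AMHR2, and in the other 7 libraries 3 fragments are worth at most 0.0248 and 0.0348 FPKM. No comparison of the groups can be drawn from these counts.

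AMH itself was measured in every tumor. It was at 2.65, 3.18 and 4.03 FPKM in PBS replicates 1 to 3 and at 1.73, 2.43, 2.16 and 3.10 FPKM in the gluconate tumors, so that the groups overlapped between 2.65 and 3.10 FPKM. From 10 fragments, its level in PBS replicate 4 was 1.40 FPKM, with a Poisson interval of 0.671 to 2.57 FPKM that reaches into the range of the others. AMH lies at chr19:2249323-2252073, and SF3A2, a splicing factor gene at 46.6 to 60.6 FPKM in the 7 libraries, ends 667 bases before its start. Whether fragments that run past the end of SF3A2 were counted for AMH was not tested.

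Ordered by mean FPKM over the 7 libraries, the genes ran from FSTL1 at 128 ± 19.5 (SD, n = 7) through FSTL3 at 53.5 ± 4.54, INHBB at 7.46 ± 1.01, AMH at 2.76 ± 0.759, FOXL2 at 2.43 ± 0.751 and FST at 0.583 ± 0.282 to INHBA at 0.122 ± 0.0668 FPKM. AMH and FOXL2, next to each other in this order, did not differ beyond their spread, whereas the ranges of the other neighbors down to INHBA did not overlap. INHA, AMHR2 and NR5A1 followed with means of 0.0428, 0.00912 and 0.00546 FPKM and ranges that all begin at 0. In PBS replicate 4 the order changed, since FOXL2 and FST took the places after FSTL1 and FSTL3, and FOXL2 and FSTL3 were level within their Poisson intervals.

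The spread among the 7 libraries also differed between the genes. The coefficient of variation (the SD over the mean) was 48.4% for FST, 30.8% for FOXL2 and 27.5% for AMH, larger than in 98.4%, 94.5% and 92.8% of the genes tested, whose median was 9.78%. It was 15.3% for FSTL1, 13.6% for INHBB and 8.49% for FSTL3. Treatment and counting error both enter these values.

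Because the members of the pathway act on each other as proteins, their FPKM were also summed by role. Activin subunits (INHBA + INHBB) summed to 5.99 to 8.93 FPKM in the 7 libraries and 7.21 FPKM in PBS replicate 4, and the activin binders (FST + FSTL3) to 47.4 to 59.2 FPKM and 34.1 FPKM. The FPKM of the binders thus exceeded that of the subunits 5.66 to 8.48 times in the 7 libraries and 4.72 times in PBS replicate 4. These are levels of RNA and give no ratio of the proteins. The makeup of both sums differed more than their ratio, as FST was 36.2% of FST + FSTL3 in PBS replicate 4 against 0.466% to 2.37% elsewhere. INHBA was 14.7% of the subunits in PBS replicate 4 against 0.561% to 3.58%. Between the groups without PBS replicate 4, the ratio of binders to subunits was 7.18 ± 1.35 with PBS (SD, n = 3) and 7.28 ± 0.899 with gluconate (SD, n = 4), with p = 0.857 in the exact permutation test.

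**Figure D2:**
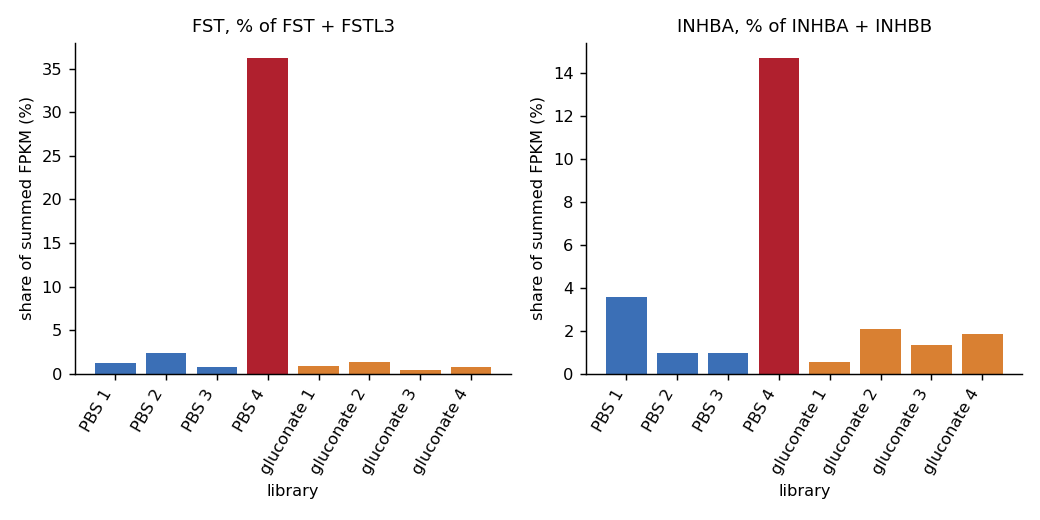
Share of FST in the summed FPKM of FST and FSTL3 (left, %) and of INHBA in the summed FPKM of INHBA and INHBB (right, %), 1 bar per library, with PBS replicates 1 to 3 in blue, PBS replicate 4 in red and gluconate tumors in orange. PBS replicate 4 reached 36.2% and 14.7%, where the other 7 libraries reached at most 2.37% and 3.58%.

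Set against all genes, the members divided in PBS replicate 4. Of the 12530 genes tested, 13.2% lay above all of the other 7 libraries and 0.543% were over 4 times their maximum, while 58.6% were below the lowest. Of the 6 members that passed the minimum of 0.5 FPKM, FOXL2 and FST were above the other libraries and over 4 times their maximum, FSTL1, FSTL3 and AMH were below the lowest, and INHBB was within the range. These counts rest on the values the choice of genes used. INHBA, INHA, AMHR2 and NR5A1 did not pass the minimum and are outside them. The part of the low depth of PBS replicate 4 in these values was not tested beyond the Poisson intervals given.

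The comparison of gluconate with PBS tumors, without PBS replicate 4, asked whether treatment moved these genes. FSTL1 was higher with gluconate and AMH was lower, each at an unadjusted p under 0.05 in limma, and none of the 10 genes passed after adjustment. The mean of FSTL1 was 112 ± 10.1 FPKM with PBS (SD, n = 3) and 139 ± 16.4 FPKM with gluconate (SD, n = 4). Its log2 fold change was 0.31 on the log2(FPKM + 0.1) scale with a standard error of 0.0996 and an adjusted p of 0.799 in limma. It was higher in 4 of 4 gluconate tumors than in any PBS tumor, and the exact permutation test over the 35 splits gave 0.0571, the smallest p it allows.

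The mean of AMH was 3.29 ± 0.695 FPKM with PBS (SD, n = 3) and 2.36 ± 0.576 FPKM with gluconate (SD, n = 4). Its log2 fold change was -0.47 with a standard error of 0.196 and the same adjusted p of 0.799 in limma. The exact permutation test gave p = 0.114. The AMH call was lost in 5 of the 7 fits that left out 1 further library, namely without PBS replicate 2 or 3 or gluconate replicate 1, 2 or 3, with log2 fold changes between -0.50 and -0.32, whereas FSTL1 was called in all 7. It was also lost with all 8 libraries, where the log2 fold change of AMH was -0.18.

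The count of 2 of 6 members stood beside a background of 6.21%, the 778 of 12530 genes at an unadjusted p under 0.05, of which 357 were higher and 421 lower. Leaving out PBS replicate 1 moved the background to 1451 genes and leaving out gluconate replicate 4 to 517, and the member count ran from 1 to 3 over the fits without 1 further library. After adjustment the share of genes called was 0%, both in limma and in limma's voom on whole fragments, which gave 760 genes at an unadjusted p under 0.05. Groups that did not overlap were found in 6.1% of the genes and in 1 of the 6 members, FSTL1. The median log2 fold change was -0.08 over the 6 members and 0.00 over all genes.

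FOXL2 and FST gave no call in this comparison. The FOXL2 mean was 2.68 ± 1.04 FPKM with PBS (SD, n = 3) and 2.25 ± 0.553 FPKM with gluconate (SD, n = 4), for a log2 fold change of -0.19 with a standard error of 0.264 and an adjusted p of 0.901 in limma. FST was at 0.757 ± 0.338 FPKM with PBS (SD, n = 3) and 0.453 ± 0.174 FPKM with gluconate (SD, n = 4), for a log2 fold change of -0.61 with a standard error of 0.319 and an adjusted p of 0.813 in limma. Both moved with single libraries. Without PBS replicate 3 the log2 fold changes were -0.52 for FOXL2 and -0.87 for FST, each at an unadjusted p under 0.05, and without PBS replicate 2 that of FOXL2 was 0.06. FST also passed without gluconate replicate 2, at -0.80, and was at -0.44 without gluconate replicate 3. With a pseudocount of 1 in place of 0.1 it was at -0.26.

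With PBS replicate 4 included, the FOXL2 and FST differences grew in size and in error. The log2 fold change of FOXL2 was -0.95 with a standard error of 0.656, and that of FST was -1.59 with a standard error of 0.839, both with an adjusted p of 0.740 in limma. That of INHBA, which was -0.08 with a standard error of 0.315 without PBS replicate 4, was -0.68 with a standard error of 0.588. With all 8 libraries 4.62% of the genes were called, and of the members only FSTL1, at 0.36 with a standard error of 0.102. The exact permutation test over the 70 splits gave p = 0.343 for FOXL2, 0.0857 for FST and 0.0286 for FSTL1, the last being the smallest it allows.

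**Figure D3:**
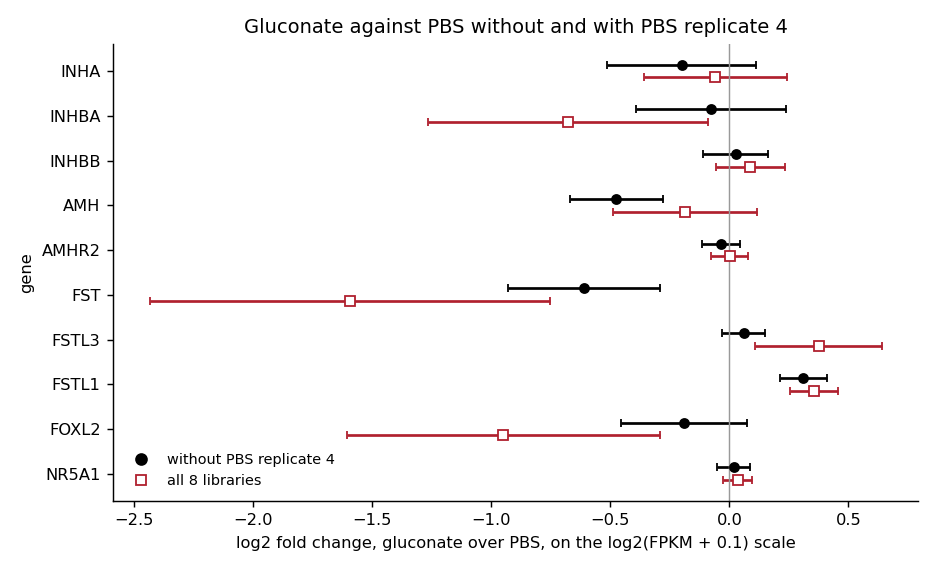
Log2 fold change of gluconate over PBS for each of the 10 genes on the log2(FPKM + 0.1) scale, without PBS replicate 4 (filled circles) and with all 8 libraries (open squares), with bars of 1 standard error from limma. FOXL2 moved from -0.19 to -0.95 and FST from -0.61 to -1.59 when PBS replicate 4 entered, while FSTL1 stayed at 0.31 and 0.36.

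Other genes of activin, inhibin and AMH signaling were compared between the groups in the same fit. Of a list of 27 further ligands, receptors, SMADs and regulators, 26 were in the table and 18 were tested. Of these, 10 had a positive and 8 a negative log2 fold change, and TGFBR3 and SMURF2 were called lower at an unadjusted p under 0.05, beside 6.21% of all genes called in either direction, with a median log2 fold change of 0.01 over the 18. TGFBR3 encodes betaglycan, the coreceptor through which inhibin acts. It was at 5.22, 6.46 and 6.04 FPKM in PBS replicates 1 to 3 and at 5.42, 4.04, 4.71 and 4.67 FPKM with gluconate, a log2 fold change of -0.32 with a standard error of 0.114 and an adjusted p of 0.799 in limma.

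SMURF2, a ubiquitin ligase that targets the receptors and SMADs, was the most abundant gene of the list. It was at 29.0, 33.1 and 53.6 FPKM in PBS replicates 1 to 3 and at 26.6, 30.8, 28.9 and 22.8 FPKM with gluconate, a log2 fold change of -0.45 with a standard error of 0.188. The call was lost without PBS replicate 3, where the log2 fold change was -0.19, and without gluconate replicate 1 or 4. Over these 3 fits the log2 fold change ran from -0.45 to -0.19. That of TGFBR3 was lost without PBS replicate 2, at -0.26. With all 8 libraries neither gene was called. Next by mean came SMAD5, which transmits AMH signals, and SMAD4, the common partner of the SMADs, added after its values were seen, and the levels of the pair did not differ beyond their spread. They were at 10.1 to 12.2 and 7.54 to 12.3 FPKM in the 7 libraries, with log2 fold changes of -0.08 and 0.14.

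In PBS replicate 4 none of these 26 genes was over 4 times the highest of the other 7 libraries, beside 0.543% of all genes tested. FOXL2, FST and INHBA were, but they belong to the genes chosen with values of these libraries known. The nearest of the 26 was SMAD7, named here after its values were seen, an inhibitory SMAD that activin and TGF-beta signals induce. It was at 8.62 FPKM in PBS replicate 4, where the Poisson interval began at 7.18 FPKM, and between 1.19 and 2.41 FPKM elsewhere. That is 3.57 times the highest of them. Among the 18 genes tested, 4 exceeded the range of the other libraries and 11 lay under it, where 13.2% and 58.6% of all genes did. None of the 26 was over 4 times below that range.

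Other genes of ovarian somatic cells were measured beside FOXL2. A list of granulosa, theca and gonadal genes other than the members had 24 of 26 genes in the table, of which 11 were at 0 in PBS replicate 4 and 3 to 6 in each of the others. The defining genes CYP19A1 (aromatase), FSHR (the follicle-stimulating hormone receptor), CYP17A1, STAR, HSD3B2 and GATA4 had 0 fragments in PBS replicate 4, and none exceeded 0.102 FPKM in another library. A count of 0 in PBS replicate 4 allows 0.0562 FPKM of FSHR and 0.269 to 0.795 FPKM of the other 5, above their level in every other library, so these zeros do not place PBS replicate 4 below the rest. HSD17B1 and GATA6 of the same list, named after their values were seen, were measured in every library. HSD17B1 was at 6.93 FPKM in PBS replicate 4, with a Poisson interval of 4.83 to 9.64 FPKM, against 7.13 to 10.2 FPKM elsewhere. GATA6 was at 1.68 FPKM in PBS replicate 4 against 1.20 to 2.11 FPKM elsewhere. The summed FPKM of the list was 87.0 in PBS replicate 4, 41.7 to 54.7 in the other PBS tumors and 37.6 to 49.2 in the gluconate tumors, and NR2F2 alone held 49.4 FPKM of the first of these. The implanted cells were a human carcinoma line, the host was mouse, and the genes here are human. These values therefore do not count granulosa, theca or stromal cells of the host. Whether mouse fragments were counted for these genes was not tested. Fewer cells with a transcript and less RNA per cell cannot be told apart in such bulk samples.

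Of the 24 genes, 1 was over 4 times the highest of the other libraries. Among all genes tested 0.543% were, a share that leaves out genes under the minimum. The gene of the list was EMX2, itself under the minimum of 0.5 FPKM and so outside that share. EMX2 is a homeobox factor of the developing gonad and the reproductive tract. It was at 5.75 FPKM in PBS replicate 4 from 59 fragments, with a Poisson interval from 4.38 FPKM upward, and at 0.118, 0.257 and 0 FPKM in PBS replicates 1 to 3. In the gluconate tumors it was at 0.229, 0.333, 0.00980 and 0.00901 FPKM. PBS replicate 4 was thus 17.3 times the highest of the others. Of the 7 list genes tested, 3 were above all of the other libraries, beside 13.2% of all genes. List genes above all 7 libraries, named after their values were seen, were WT1 (3.61 times the highest), NR2F2 (1.91 times), LHX9 (1.81 times), NR0B1 (1.15 times, at 3.77 FPKM with an interval from 2.48 FPKM), and CYP11A1 and TCF21, which had 3 and 4 fragments. NR2F2, a nuclear receptor of stromal and theca cells, was at 18.9, 25.9 and 19.4 FPKM in PBS replicates 1 to 3, 49.4 FPKM in PBS replicate 4 and 17.0, 19.8, 17.1 and 13.5 FPKM with gluconate. SOX9, the factor that drives testis fate and that FOXL2 is known to repress, was at 10.6 FPKM in PBS replicate 4, inside the 7.63 to 11.3 FPKM of the others.

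Between the groups, 7 genes of this list were tested, 2 with a positive and 5 with a negative log2 fold change, and the median log2 fold change was -0.03. Of the 7, NR2F2 was called lower at an unadjusted p under 0.05, beside 6.21% of all genes called in either direction, with a log2 fold change of -0.34, a standard error of 0.142 and an adjusted p of 0.799 in limma. The call was lost without PBS replicate 2 or gluconate replicate 1, 3 or 4, at -0.35 to -0.19. It held with all 8 libraries, at -0.64.

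**Figure D4:**
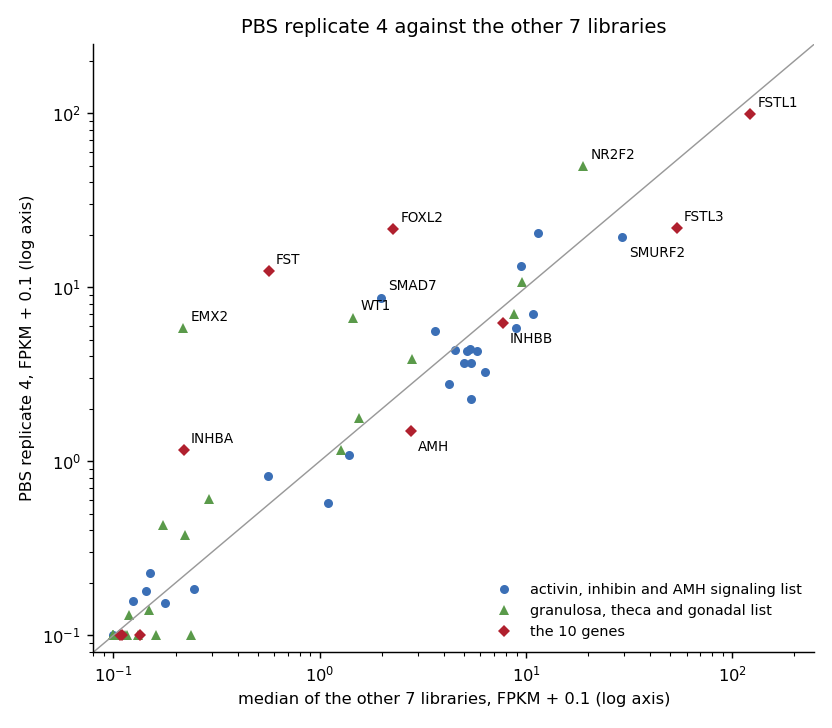
FPKM + 0.1 in PBS replicate 4 against the median of the other 7 libraries (both log axes), for the 10 genes (diamonds), the activin, inhibin and AMH signaling list (circles) and the granulosa, theca and gonadal list (triangles), with the line of equal values. FST at 12.3, FOXL2 at 21.5, EMX2 at 5.75 and INHBA at 1.06 FPKM lie far above the line, and FSTL3 at 21.7 FPKM lies below it.

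Markers of other cell types were measured beside these values. They are human genes, while the stroma, vessels and leukocytes of the host are mouse, so their values do not count those cells. The fibroblast list summed to 45.5 FPKM in PBS replicate 4, 130.4 to 186 FPKM in the other PBS tumors and 166 to 193 FPKM in the gluconate tumors. Nearly all of it was COL1A1, at 41.4 FPKM in PBS replicate 4 against 121 to 182 FPKM elsewhere. LUM was at 1.70 FPKM against 2.27 to 5.18 FPKM. COL1A2, DCN and PDGFRA, defining fibroblast genes, were at or under 0.0678 FPKM in every library. The mesothelial list summed to 119 FPKM in PBS replicate 4, 115 to 133 FPKM in the other PBS tumors and 107 to 175 FPKM with gluconate, nearly all of it MSLN. CALB2, a mesothelial marker named after its values were seen, was at 0.174 FPKM in PBS replicate 4 from 1 fragment, with an interval up to 0.969 FPKM, against 0.672 to 1.18 FPKM elsewhere. The gene LRRN4 was called lower with gluconate, at a log2 fold change of -0.59, a call lost without PBS replicate 2 or 3, at -0.53 to -0.37, and with all 8 libraries, at -0.48.

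The endothelial list summed to at most 0.707 FPKM in any library, and PBS replicate 4 held 3 fragments or fewer of each of its 6 genes. CDH5, KDR and CLDN5 were at 0 there, where 3 fragments are worth 0.130 to 0.328 FPKM, more than any other library held. PECAM1 was at 0.0688 FPKM against 0.296 to 0.563 FPKM. VWF was at 0.0286 FPKM from 1 fragment against 0.0397 to 0.0973 FPKM. TEK, named after its values were seen, was at 0.159 FPKM from 3 fragments against 0.0104 to 0.0490 FPKM, and its Poisson interval began at 0.0328 FPKM, within that range. The leukocyte list summed to 27.1 FPKM in PBS replicate 4 and between 20.7 and 28.9 FPKM elsewhere, with CD68 as its main gene, ITGAM at 1.36 FPKM against 0.691 to 0.810 FPKM, and PTPRC, the pan-leukocyte gene, at most at 0.0165 FPKM in any library. The adipocyte list summed to 12.2 FPKM in PBS replicate 4 and between 6.00 and 9.00 FPKM elsewhere, nearly all of it LPL. CIDEC was at 0 in PBS replicate 4, where 3 fragments are worth 0.538 FPKM, and at 0.0467 to 0.231 FPKM elsewhere. Of the ovarian carcinoma list, KRT7 was called higher with gluconate at a log2 fold change of 0.48 with an adjusted p of 0.799 in limma, a call lost without PBS replicate 2 or 3 or gluconate replicate 3 or 4, at 0.28 to 0.45, and kept with all 8 libraries, at 0.73. The part of any of these cell types in the FOXL2, FST and INHBA values was not tested.

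Over the 7 libraries FST followed FOXL2 in part. Pearson's r of their log2(FPKM + 0.1) was 0.85 and Spearman's rho 0.75 over 7 libraries, and r was 0.59 over the 5 left without PBS replicate 2 and gluconate replicate 2, the libraries farthest from the median of FOXL2. Among 12529 genes FST was rank 210 by r with FOXL2, INHBB was rank 6159 and FSTL3 rank 12192, at r of 0.13 and -0.71. The libraries share treatment and depth, and the values are a description of these 7 points.

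The 5 genes whose pattern was most like that of FOXL2 over the 7 libraries were PRRX1, SOX9, NIPBL, MSL1 and WT1, at r of 0.97 to 0.98. WT1, a factor of the gonadal ridge and of serous carcinoma, was at 1.07 to 1.82 FPKM in the 7 libraries and 6.58 FPKM in PBS replicate 4. PRRX1, a mesenchymal homeobox factor, was at 0.718 to 1.42 FPKM and 4.62 FPKM. MSL1 was at 19.2 to 22.6 FPKM and 54.6 FPKM, and NIPBL, the cohesin loader, at 6.66 to 8.81 FPKM and 19.0 FPKM. In PBS replicate 4 these 4 genes were 2.16 to 3.61 times the maximum elsewhere, and SOX9 was within their range.

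For INHBB the 5 most alike genes were EPN2, CSNK1D, GGCX, SLX4 and RAB40C, at r of 0.94 to 0.98 over the 7 libraries. Of these, CSNK1D was above the other libraries in PBS replicate 4, at 20.0 FPKM against 13.0 to 15.2 FPKM, and the other 4 were below them. INHBB had an r of -0.02 with FST and 0.00 with FSTL1. With 7 libraries and 12529 genes compared, high values of r arise readily, and these names describe likeness only.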

How the data were processed

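The authors deposited FPKM values for 24196 genes by symbol in 8 tumor libraries, and the submitters' processing notes name the build GRCh38. Poly(A) RNA was sequenced in pairs of 150 bases, and the aligner, counter, annotation and filters are not given in the sources used here. Columns lettered C and T were read as PBS and gluconate from the axis of the study's plot. Values were whole multiples of the worth of 1 fragment for every gene, within 0.001 fragments, which gave fragments, depth and 95% Poisson intervals. These cover counting error only.

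Groups were compared by limma 3.58.1 (R 4.3.3, with a trend) on log2(FPKM + 0.1), over genes with a mean of at least 0.5 FPKM in 7 libraries, and with the two-sided exact permutation test. The code was tested on simulated data. Genes under the minimum were fitted without it. Fold changes of low genes are understated on this scale.

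The members and lists were chosen with earlier results of these data known. Named list genes are those at an unadjusted p under 0.05, the 2 most abundant per list, those of the activin and gonadal lists over 4 times above or below the other libraries in PBS replicate 4, the nearest 3 genes on each side of FOXL2 and the 5 most correlated with FOXL2 and INHBB. Other names were added after their values were seen. Python 3.11.15, scipy 1.17.1 and matplotlib 3.10.9 were used. Of the table's symbols, 22797 matched RefSeq, and all 10 members had a promoter entry.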

Additional observations from a re-analysis of the deposited data

Results flagged for a closer look

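In groups of 4 libraries, a value was marked where its gap to the nearest of the others, over the range of the group, passed Dixon's 95% critical value. Of 20 groups (10 genes in 2 treatments), 6 passed, 4 of them in PBS replicate 4. About 1 in 20 groups passes by chance where genes are not chosen by their values. The genes here were chosen with the values of PBS replicate 4 known, so its 4 marks repeat that choice and are no test. Among the PBS tumors, FOXL2 at 21.5 FPKM, FST at 12.3 FPKM and INHBA at 1.06 FPKM in PBS replicate 4 were far above the other 3, and AMHR2 at 0 FPKM in the same library was below them, where each of the others held 1 fragment. NR5A1 at 0.0143 FPKM in PBS replicate 1 was 2 fragments against 0 in the other PBS tumors. NR5A1 at 0 FPKM in gluconate replicate 4 stood against 1 fragment in each of the other gluconate tumors. The AMHR2 and NR5A1 values are at the limit of counting.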

How the results depend on the processing

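Alternatives were pseudocounts of 0.01 and 1, no minimum, a mean of at least 1 FPKM, scaling by median ratios, quantile normalization, voom on whole fragments, all 8 libraries, a replicate block, and fits without 1 further library; a block with all 8 libraries, and all 8 or voom with no minimum for genes below it, were added after the data were seen. FSTL1 was called higher in all 17 alternatives, at 0.24 to 0.37. AMH was lower in all 17 and called in 9; it lost the call without the minimum (-0.47), with all 8 libraries and with those and the block (-0.18 each), and leaving out 1 library gave -0.61 to -0.32. The member count of 2 became 1 without the minimum, with all 8 libraries and with their block, and 1 to 3 leaving out 1 library. The count over all genes of 778 became 1183 without the minimum, 470 with all 8 and the block, and 517 to 1451 leaving out 1 library (lowest without gluconate replicate 4, highest without PBS replicate 1). The direction turned for FOXL2 without PBS replicate 2 (0.058), FSTL3 without PBS replicate 2 (-0.024), INHBB without PBS replicate 1 (-0.076) or gluconate replicate 3 (-0.053), and AMHR2 with all 8 libraries (0.0012); the cause was not tested. Leaving out 1 library gave FOXL2 -0.52 to 0.058, FST -0.87 to -0.44 (under the minimum without PBS replicate 2), FSTL3 -0.024 to 0.12 and INHBB -0.076 to 0.13. A pseudocount of 1 gave FST -0.26.

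Same-numbered libraries deviated together with r of -0.07, 0.14 and 0.11, so the numbers were not taken as pairs. The replicate block gave 571 genes and 3 members, with FST at -0.59 called.

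The log2 ratio of PBS replicate 4 to the median of the others kept its sign for FOXL2 (2.87 to 3.50), FST (3.99 to 4.71), INHBA (2.64 to 2.78) and FSTL3. Scaling by median ratios moved FSTL3 to -1.02, FSTL1 to -0.02 and INHBB to -0.03, and quantile normalization moved INHBB to -0.04 and NR5A1 to -0.03. Against the other 3 PBS tumors NR5A1 was at 0. Depth limits INHA, AMHR2 and NR5A1 in all libraries and AMH in PBS replicate 4.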
